A study of Drosophila melanogaster with 4 samples.

Results

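The NK homeobox cluster on chromosome arm 3R of Drosophila melanogaster was examined for peaks of Homothorax binding in embryos. All peaks of the deposited list whose midpoint lay between 17190000 and 17410000 of 3R (FlyBase release 5) were taken, a window of 220 kb named for the genes tin, bap, lbl, lbe, C15 and slou. It held 55 of the 6207 peaks of the whole list, against 1482 on the rest of 3R. Peaks were taken by position and not by any other property, but the window was chosen with earlier results of these data known.

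The peaks come from chromatin immunoprecipitation followed by sequencing (ChIP-seq). The 4 libraries were 2 Homothorax ChIP libraries and 2 input DNA libraries, all from whole embryos of unknown sex labelled 0 to 8 h, although the protocol text in the labels opens with a laying window of 8 to 16 h. Both groups share the strain, labelled Y cn bw sp, in which the alleles y[1], oc[R3.2], Gr22b[1] and Gr22d[1] are listed together with cn[1], CG33964[R4.2], bw[1] and sp[1], and, on the third chromosome, with GstD5[1], Rh6[1], MstProx[1], LysC[1] and lab[R4.2]. The antibody was a crude guinea pig polyclonal serum raised against the full-length His-tagged protein, and chromatin was cross-linked in 1.8% formaldehyde for 15 min. Whole embryos mix all tissues, so the cells in which a site was bound cannot be told apart. One list serves the whole series, so no peak has a value per library, replicate error or ChIP value to set beside an input value, and read depth is unknown. The score of a peak is the authors' own value, written by the peak caller MACS on a scale not given in the sources used here.

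Homothorax, a TALE-class homeodomain factor, moves into the nucleus and binds DNA with its partner Extradenticle, and Hox proteins use the pair as a cofactor. The NK cluster is an old group of homeobox genes that in the fly pattern mesoderm, heart and muscle. tin (tinman, CG7895) is required for the heart and dorsal mesoderm, and bap (bagpipe, CG7902) acts downstream of it in the visceral mesoderm. The ladybird pair lbl (CG6570) and lbe (CG6545) sets the identity of a subset of heart cells and muscle founders. C15 (clawless, CG7937) acts in the tip of the leg, and slou (slouch, CG6534) specifies the identity of a subset of body wall muscles. A RefSeq gene table of release 6 gave this same order along 3R for all 6 genes. In it, tin and bap are next to each other among protein-coding genes, as are lbl and lbe. Between bap and lbl lie Ugt49B2, CG7907, CheB93a and CheB93b, between lbe and C15 lies Fancm, and between C15 and slou lies sp3. Because that table and the peaks use different releases, no peak was assigned to a gene, exon, intron or UTR, and positions below are those of release 5.

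Homothorax peaks were crowded in the window. It carried 25 peaks per 100 kb, against 5.35 on the rest of 3R, a ratio of 4.67, and against 4.96 on the rest of the 6 arms (X, 4, 2L, 2R, 3L and 3R), a ratio of 5.04. Peaks covered 38.6 kb of the window (17.6%), compared with 4.29% of the rest of 3R. Among the 532 other windows of 220 kb tiled over the 6 arms, which held a mean of 10.9 ± 12.7 peaks (SD across windows) and a median of 7, only 7 held 55 or more. The window stood further down by other measures, with 20 tiled windows covered as much or more and 39 with a highest score of at least 176.31. These ranks describe one list in which neighbouring peaks are not independent.

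**Figure D1:**
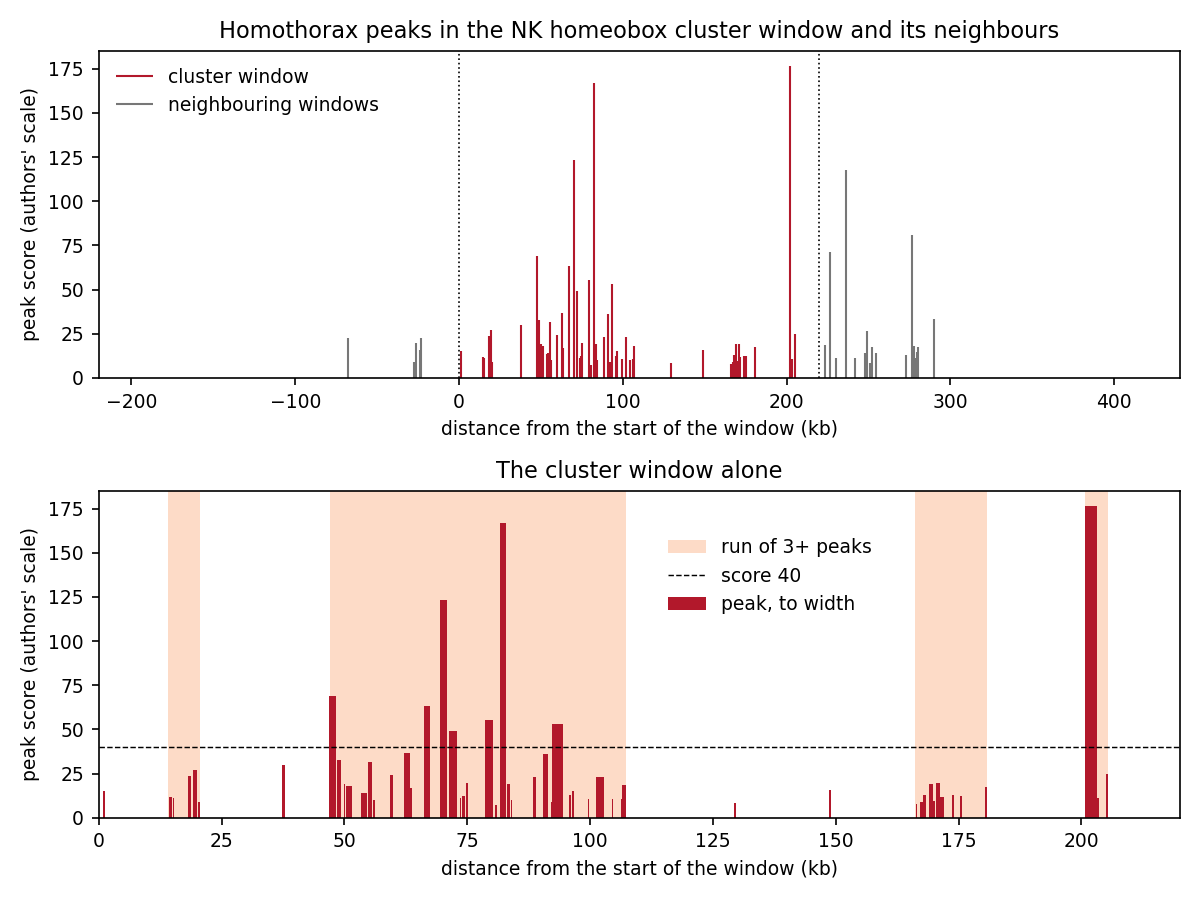
Score of each Homothorax peak (vertical axis, authors' scale) against distance from the start of the window in kb. The upper panel shows the 220 kb cluster window between dotted lines with the 220 kb on either side, and the lower panel the window alone, with bars drawn to peak width, shading for runs of 3 or more peaks and a dashed line at a score of 40. Inside the window, peaks of 40 or more stand within the run that extends from 47.0 to 107.3 kb, the last of them near 93.4 kb, and once more near 201.9 kb.

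The window began and ended in stretches with few peaks. The first peak inside, at 17190920 to 17191348 with a score of 15.39, followed a gap of 24.0 kb, and the nearest peak before the window, at 17166406 to 17166905, scored 22.35. The last peak inside, at 17395085 to 17395467, scored 24.63 and was followed by 17.4 kb without a peak. Gaps of similar length also occurred inside the window. The next one, at 17412855 to 17413414 with a score of 18.77, had its centre 3.13 kb beyond the edge. The 220 kb before the window held 5 peaks with a highest score of 22.58, and the 220 kb after it held 17 with a highest score of 117.49, at 17423522 to 17428384. Both neighbouring windows thus held fewer peaks than the cluster window. Peaks of 40 or more were 3 of 17 (17.6%) after it and 0 of 5 before it, beside 17.5% of the whole list. With 5 peaks before it, the 2 sides cannot be set apart.

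The cluster peaks were numerous rather than strong. Their scores ran from 7.48 to 176.31 with a median of 16.70 (95% binomial interval of the median 12.7 to 19.5) and quartiles of 11.18 and 25.75, while the 6152 other peaks had a median of 16.93 and quartiles of 11.51 and 29.76. Among the cluster peaks, 8 scored 40 or more, 14.5% (exact Clopper-Pearson 95% interval 6.5 to 26.7%, counting error only), beside a background of 17.5% of the whole list. Likewise 3 scored 100 or more, 5.45% (interval 1.14 to 15.1%), beside 4.32% of the list. Under 20 were 36 cluster peaks, 65.5%, beside 59.3%. The interval of each of the first 2 shares contains the share of the list. Neighbouring peaks are not independent, so these intervals are descriptive only, and a difference in strength was not tested.

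**Figure D2:**
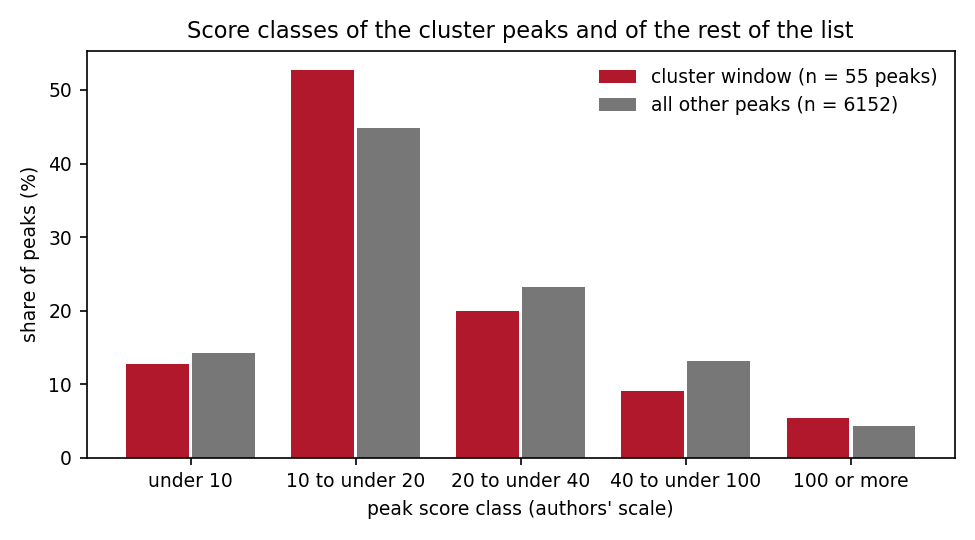
Share of peaks in percent (vertical axis) in 5 classes of the authors' score (horizontal axis) for the 55 cluster peaks and the 6152 other peaks. The 2 sets have similar profiles, with 52.7% of cluster peaks and 44.9% of the others between 10 and 20.

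Width gave the same picture. Cluster peaks had a median width of 520 bp, against 483 bp in the rest of the list, and 12 of the 55 (21.8%) were over 1 kb wide, beside 20.3% of the list. Wider peaks scored higher in both sets, with a Spearman rho of 0.81 across the 55 cluster peaks and 0.81 across the others. Peaks share the libraries they were called from, so this is a description. When each peak was ranked among the peaks of its own width class (5 classes of equal size), 25 of the 55 cluster peaks lay above their class median, beside 50.0% of the list by construction, and their median rank was the 48.5th percentile.

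**Figure D3:**
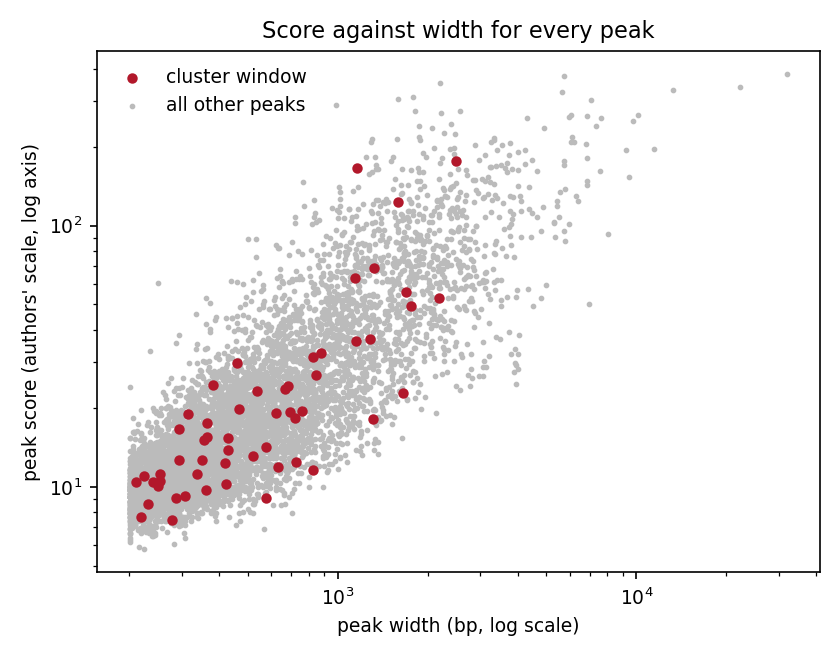
Authors' score (vertical log axis) against peak width in bp (horizontal log axis), with the 55 cluster peaks drawn over the 6152 other peaks. The cluster peaks lie within the cloud of the rest over their whole range, up to 2490 bp and a score of 176.31.

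The cluster peaks were closely spaced. Of the 55, 30 had another peak within 200 bp, edge to edge (54.5%), beside 26.8% of the peaks on the 6 arms. The median distance from a cluster peak to its nearest neighbour was 0.187 kb, against 0.472 kb on the rest of 3R. Another centre within 10 kb was found for 51 of the 55 (92.7%), which is close to the 88.3% of the arms. Of the 54 gaps between consecutive cluster peaks, 29 were under 1 kb (53.7%), beside 41.7% of the gaps on the 6 arms, and 8 were under 100 bp (14.8%), beside 6.9%. The shortest gap was 45 bp in the cluster and 44 bp on the arms. Density and spacing are not independent measures, and whether the caller split broader enriched regions at such short gaps was not tested.

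Joined across gaps of at most 5 kb, the 55 peaks formed 8 runs. There was 1 long run of 33 peaks, then runs of 10, 5 and 3 peaks, and 4 peaks stood alone (7.27%, beside 16.8% on the arms). The 7 gaps between runs added up to 117.2 kb, 53.2% of the window. The longest 3 were 22.1 kb at 17297270 to 17319371, 19.9 kb at 17370763 to 17390704 and 19.0 kb at 17319603 to 17338629. Most of the window's length thus lay in the 7 gaps, although gaps over 5 kb were less frequent here than elsewhere. They made up 13.0% of the gaps between cluster peaks, beside 33.5% of the gaps on the 6 arms. That the runs stand apart follows from the 5 kb rule.

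**Figure D4:**
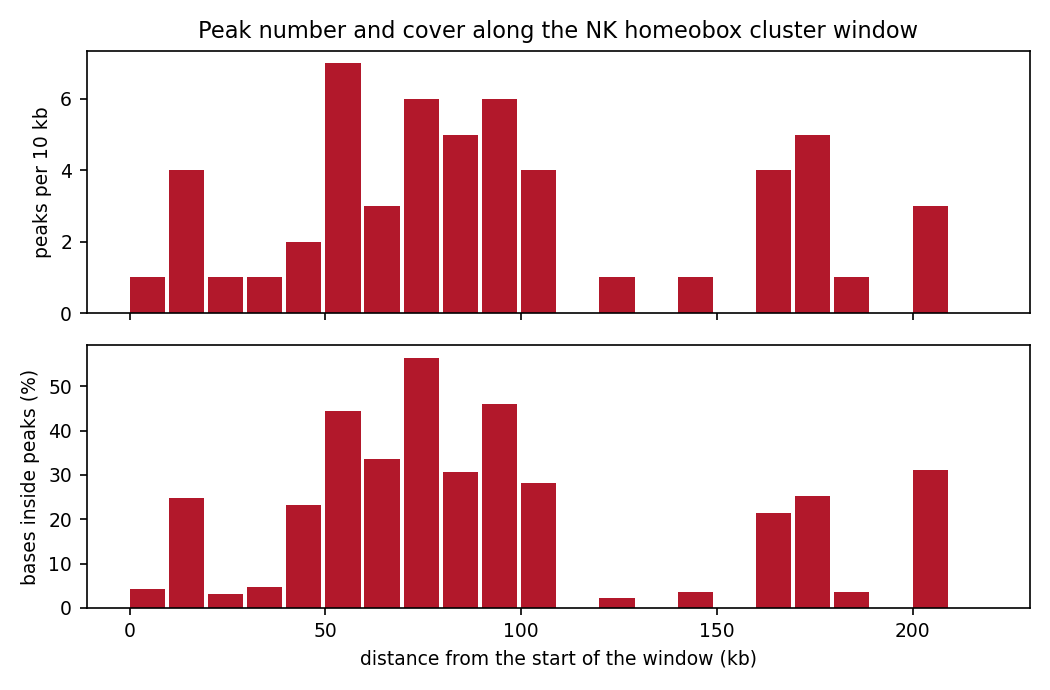
Number of peaks per 10 kb (upper panel) and percent of bases inside peaks (lower panel) along the window, against distance from its start in kb. The block from 50 to 100 kb holds up to 7 peaks per 10 kb and up to 56.4% cover, and 5 of the 22 bins hold no peak.

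The long run carried most of the signal. It lay at 17236957 to 17297269, 60.3 kb, and held 60.0% of the window's peaks and 67.8% of its covered bases. Peaks took up 43.5% of its length, with a median gap of 0.531 kb. It held 7 of the 8 cluster peaks of 40 or more, and 11 of the 12 over 1 kb wide. Those 7 were 21.2% of its 33 peaks, beside 17.5% of the whole list, of which 20.3% were over 1 kb wide. Its 33 peaks had a median score of 19.09, against 12.89 for the other 22 cluster peaks. They were also wider, with a median of 620 bp against 424.5 bp. Within their width classes, 17 of the 33 lay above the median, beside 50.0% of the list by construction. On the 6 arms 8 runs had 33 peaks or more, this one included. Among the 106 runs of 10 or more peaks, 26 had a highest score of at least that of this run, this one included. Its cover of 43.5% lay below the median of 50.1% of the 106 runs.

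Within the long run most of the peaks of 40 or more stood in its first and middle parts. The peak at 17236957 to 17238282 opened the run with a score of 68.76 and a width of 1326 bp. The next of 40 or more followed 18.0 kb later, at 17256280 to 17257424, with a score of 63.22. It was the first of 5 such peaks up to 17272929, with weaker ones among them. The second, at 17259378 to 17260963, scored 123.22, and the third, at 17261197 to 17262956, scored 49.21 only 0.233 kb further on. The fourth, at 17268525 to 17270222, scored 55.60. The fifth, at 17271770 to 17272929, had the highest score of the run, 166.81, in 1160 bp. That width is close to the 1145 bp of the peak that scored 63.22, so scores differed widely between peaks of like width. Within its width class the peak of 166.81 stood at the 93.9th percentile, and it ranked 77th of the whole list.

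The last part of the run held fewer high scores. The peak at 17282334 to 17284524 was 2191 bp wide, the second widest of the window, and scored 52.97. Beyond it no peak of the run reached 40, while 17.5% of the whole list did. In their width classes these later peaks stood at percentiles 48.9, 70.1, 56.0, 9.62, 54.6, 55.7 and 29.7, in order of position. The 9.62 was that of a peak at 17291245 to 17292899, which was 1655 bp wide but scored 22.94. The highest scores of the window under 40 were also in this run, 36.71 at 17252104 to 17253386 and 36.28 at 17280330 to 17281482. The long run thus mixed wide peaks of high and of low score.

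The peaks directly before and after the high ones had very different scores. Beside the peak of 123.22 lay peaks of 63.22 and 49.21. Beside the peak of 166.81 lay peaks of 7.48 and 19.23, at 0.776 and 0.187 kb, and the first of these is the lowest score of the window. Across the 6 arms, the peaks next in line to a peak of 100 or more, on either side and across a gap of at most 5 kb, had a median score of 17.11. In the cluster window 2 of 5 such adjacent peaks scored 40 or more, against 101 of 431 on the arms, and 5 values are too few to set the shares apart.

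After the long run came a sparse stretch, singled out after its values were seen. Over 59.0 kb, at 17297270 to 17356233, there were 2 peaks, with scores of 8.60 at 17319372 to 17319602 and 15.54 at 17338630 to 17338995. The other lone peaks of the window were its first one and a peak at 17227388 to 17227846, between the run of 5 and the long run. That last one scored 29.82 in 459 bp, the 91.7th percentile of its width class. The 4 lone peaks had scores of 8.60 to 29.82 with a median of 15.465. The 993 lone peaks on the arms had a median of 15.24 and a range of 6.51 to 325.39.

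The run of 10 peaks held no score of 20 or more, and 59.3% of the whole list also lay under 20. The run lay at 17356234 to 17370762, 14.5 kb, with scores from 7.66 to 19.48 and a median of 12.52. Its highest score belonged to the peak at 17360383 to 17361141. Scores of 17.63, 19.32 and 19.48 in this run were above the median of the whole list, 16.93. Of its peaks, 9 of 10 scored below the median of their width class, against 16 of 33 in the long run. Of the 106 runs of 10 or more peaks on the 6 arms, this was the 1 whose highest score stayed under 20, and it was also the 1 of 134 with peaks joined across 10 kb and, with 9 peaks left, the 1 of 75 with peaks joined across 2 kb (minimum of 9 peaks). This contrast was noticed after the values were seen. Many closely spaced peaks and high scores therefore did not go together everywhere in the cluster.

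The run of 3 peaks at the far end had few peaks but a high score. It lay at 17390705 to 17395467, 4.76 kb, and opened with the highest and widest peak of the window, at 17390705 to 17393194, 2490 bp wide with a score of 176.31. This peak ranked 65th of the whole list and stood at the 94.9th percentile of its width class. It lay 106.2 kb beyond the nearest other cluster peak of 40 or more. Past the far edge of the window such peaks stood nearer. The first of them, chosen after the values were seen, scored 71.36 at 17415241 to 17417778. Next to the peak of 176.31, a peak at 17393242 to 17393465 scored 10.97 across a gap of 0.047 kb. The last of the run, at 17395085 to 17395467, scored 24.63 in 383 bp, the 96.0th percentile of its class. All 3 peaks of the run lay above their class medians, beside 50.0% of the list by construction, and 3 peaks are too few to set them apart. Of the 195 runs of exactly 3 peaks on the arms, 5 had a highest score of at least 176.31, this one included.

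Near the start of the window, the run of 5 peaks at 17204246 to 17210553 covered 6.31 kb. Its highest score was 26.87 at 17209104 to 17209946, and the others ran from 9.24 to 23.66. None of the 5 reached 40, while 17.5% of the whole list did. In median score this run was closer to the run of 10 than to the long run. The medians were 11.91, 12.52 and 19.09 in the runs of 5, 10 and 33 peaks. Above their class medians lay 2 of 5, 1 of 10 and 17 of 33 peaks, and 5 peaks are too few to set this run apart from either.

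Set beside the tiled windows most like it in number, the cluster window was at the low end in cover. The 7 tiled windows within 8 peaks of the cluster window, a range chosen after the values were seen, held 47 to 58 peaks. They had 17.7 to 41.8% of their bases inside peaks, with a median of 21.8%. The 17.6% of the cluster window lay just below all 7. Their highest scores ran from 39.21 to 289.85 with a median of 165.67, and 3 of the 7 reached at least the 176.31 of the cluster window. Their median scores ran from 15.99 to 24.74, and 5 of the 7 were at or above the 16.70 of the cluster. The same window, at 2L 21340001 to 21560000, gave the 39.21, the 41.8% and the 24.74. Without it, the lowest of the highest scores was 95.7 and the largest cover 30.7%. The closest in cover, at 2L 7480001 to 7700000, held 48 peaks with a highest score of 124.30.

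**Figure D5:**
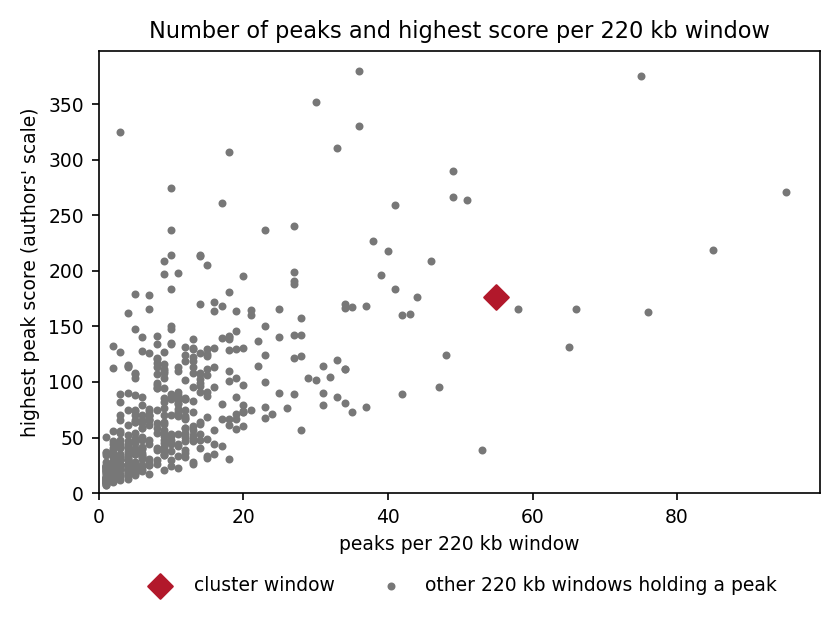
Highest peak score on the authors' scale (vertical axis) against the number of peaks (horizontal axis) in windows of 220 kb, for the cluster window (diamond) and the other tiled windows of the 6 arms that hold a peak (points). The cluster window, with 55 peaks and a highest score of 176.31, lies far to the right and in the middle of the range of scores there.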

How the data were processed

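One peak table was used. Per the file headers, it was written by MACS on FlyBase release 5, and per the submitters' processing notes the build was BDGP5 and the tools were CASAVA 1.7.0.2 and 1.7.0.3, BWA and MACS2. The authors deposited a start, an end and a score per peak. The sources used here do not give the pooling of replicates, the calling threshold or the scale of the score. Peak width is end minus start plus 1 bp, and the midpoint decided membership. The length of an arm was the end of its last peak. Runs join peaks across gaps of at most 5 kb. Tiled windows of 220 kb that overlap the cluster window were left out of the ranking. The peaks named are the 10 of highest score, the widest 5, the highest of each run of 3 or more, the outermost ones and the nearest outside, with others marked as chosen after their values were seen or given as neighbours of these. The members and lists were chosen with earlier results of these data known, and no chance test was made. Gene positions and a protein comparison had been planned and were left out, as neither a release 5 annotation nor protein sequence was used here. Python 3.11.15, numpy 2.4.6, pandas 2.3.3, scipy 1.17.1 and matplotlib 3.10.9 were used, and the functions were tested on simulated data.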

Additional observations from a re-analysis of the deposited data

How the results depend on the processing

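Of 46 alternatives tried, 31 left a value within 1.5 times (counts, densities, cover, ranks) or within its 95% binomial interval (medians and shares). Among the highest-scoring 50% of the list, the window held 27 peaks (12.3 per 100 kb), with a median score of 26.9, a median width of 843 bp and 29.6% at 40 or more; this selection raises the score by construction. Merging peaks closer than 1 kb left 26 peaks (11.8 per 100 kb), with a median score of 23.1 and a median width of 953.5 bp. A score minimum of 20 left 19 peaks. The density over that of the rest of 3R, an alternative chosen after the data were seen, stayed between 3.97 (merged) and 5.04 (edges moved in by 10 kb), and was 4.76 among the highest-scoring 50%. Runs joined across 2 kb numbered 16, the largest with 9 peaks, at 17356234 to 17365662, which came from the run of 10. The run of 33 broke into smaller runs, the first of 8 peaks at 17236957 to 17246160, so it depends on the joining distance. The window was 8th by number of peaks, 21st by covered length, 40th by highest score and 17th by summed score. No paired analysis was possible because one list serves all 4 libraries, which also means that leaving out a replicate could not be tried. Limits set by depth could not be given, since read depth is unknown.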
